A study of Mus musculus with 6 samples.

Results

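The regions described here are stretches of the mouse genome that were listed for the corepressor scaffold Sin3A, measured 1000 bases or more (right minus left boundary) and shared no base with any region listed for the forkhead transcription factor Foxk1. They are called wide Foxk1-free regions below. Both lists came from chromatin immunoprecipitation sequencing (ChIP-seq) of C2C12 cells in build mm9. After repeated rows and chromosomes 15 and M were left out, 3220 of 15185 Sin3A regions met the rule, or 21.2% (exact Clopper-Pearson 95% interval 20.6 to 21.9). The other Sin3A regions were 9382 narrow ones without Foxk1, 1534 wide ones with Foxk1 and 1049 narrow ones with Foxk1, and the Foxk1 list held 7931 regions on the same chromosomes.

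C2C12 is an established mouse myoblast line, labelled strain C3H, that proliferates in serum and can form myotubes. Both ChIP libraries and a ChIP input came from non-starved myoblasts, with 1 sample each, and the input was not analysed here. The series also holds 3 polyA RNA libraries of the same line: non-starved cells with the siRNA called siNS, siNS cells starved for 4 h in buffered salt solution, and non-starved cells with siRNA against Foxk1. The series asks where both proteins bind in fed cells and how expression differs once cells are starved or short of Foxk1.

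Sin3A does not bind DNA itself. It is a scaffold that holds the histone deacetylases Hdac1 and Hdac2 together with the chaperones Rbbp4 and Rbbp7 and subunits such as Sap30, Suds3, Brms1 and Ing1, and it is brought to chromatin by many sequence-specific factors. Foxk1 and Foxk2 are forkhead factors known to recruit Sin3, so the regions below are those listed for Sin3A at which Foxk1 was not listed. Removal of acetyl groups from histones by the complex is usually linked to repression, although Sin3 is also found at active genes in other systems.

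The cells carried the RNA of myoblasts and of the Sin3 complex. All 19 Foxk and Sin3 complex genes examined stood at 1 FPKM or more in each of the 3 RNA libraries. In the non-starved siNS library Sin3a was at 19.0 FPKM (authors' 95% interval 16.2 to 21.8) and its paralog Sin3b at 84.3 FPKM (67.2 to 103). Hdac1 stood at 95.1 FPKM (78.4 to 112) and Hdac2 at 82.5 FPKM (65.4 to 93.6) in that library. Foxk1 was at 9.09 FPKM (7.76 to 10.4), and Foxk2 at 33.7 FPKM (28.5 to 38.9). Of the myoblast markers, Myod1, which encodes a determination factor, was at 70.1 FPKM and Des, which encodes desmin, at 485 FPKM in that library. Markers of other cell types were not all low: the fibroblast genes Col1a1 and Dcn were at 32.1 and 9.64 FPKM, the adipocyte factor gene Pparg at 10.9 FPKM and the macrophage gene Cd68 at 2.50 FPKM in the same library. Adipoq, Plin1, Lum, Ptprc and all 3 endothelial markers lay under 1 FPKM in each library. In the knockdown library Foxk1 was at 5.15 FPKM (4.29 to 6.02), below the control interval, and it was the only 1 of the 19 complex genes whose interval lay apart there. Across all expressed rows of that comparison 7.13% were lower apart and 8.89% higher apart. In the starved library 2 of the 19 were higher apart and 3 lower apart, against 12.2% and 10.9% of all expressed rows. These comparisons rest on 1 library each and have no replicate check.

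The files give no gene, score, strand or read count for a region, and no mm9 sequence or annotation was used here. The regions are therefore described by width, position and neighbours. Both lists are named as merged, with no statement of what was merged, so the width of a region may include merged pieces. With 1 library for each protein, no difference between sets of regions was tested. Intervals on shares and medians cover counting error only, and regions that lie near each other are not independent. ChIP read depth is unknown, and absence from the Foxk1 list says only that no region was listed there.

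The regions were chosen by their width and by their overlap with Foxk1, so both are given as a description, with no test. The wide Foxk1-free regions had a median width of 1372 bases, with the middle 50% between 1173 and 1737 bases. They ranged from 1000 to 7575 bases. Narrow Foxk1-free regions had a median of 562 bases. The 3 regions just inside the threshold, on chromosomes 2, 7 and 11, measured 1000 bases, and the 3 just outside, on chromosomes 7, 11 and 11, measured 999 bases. The histogram of widths showed no gap at the threshold, with 284 Foxk1-free regions of 950 to 999 bases and 227 of the next 50 bases of width. Although they were 21.2% of the regions, the wide Foxk1-free regions held 4984 of the 13702 kb in the Sin3A list, or 36.4%. Wide regions that shared bases with Foxk1 had a median of 1442 bases and a maximum of 7030 bases.

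**Figure D1:**
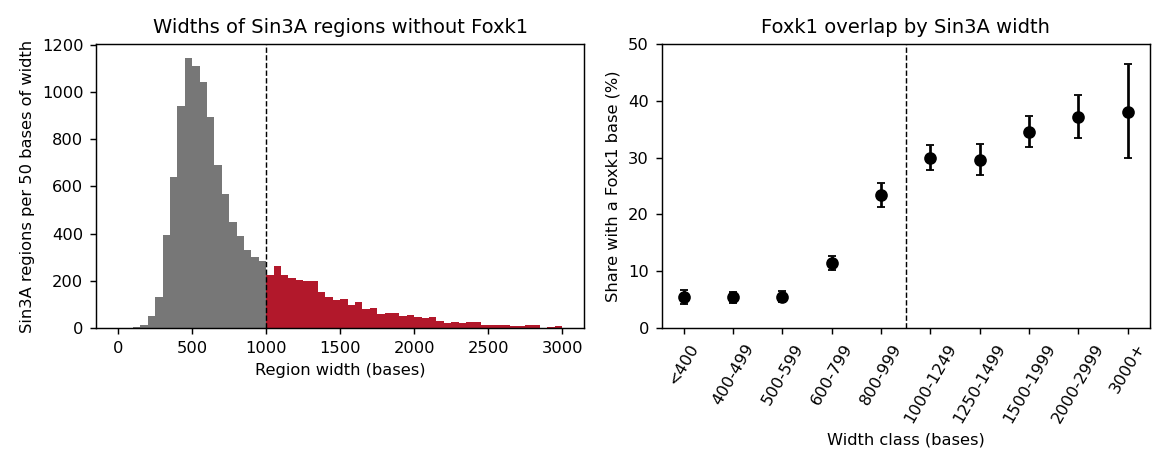
Left, number of Sin3A regions without Foxk1 per 50 bases of width, up to 3000 bases, with those of 1000 bases or more in red; the 88 regions of 3000 bases or more are not drawn. Right, share of all Sin3A regions in each width class that share a base with Foxk1, with exact 95% intervals; the share goes from 5.42% below 400 bases to 38.0% at 3000 bases or more.

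Most wide Sin3A regions lay outside Foxk1 regions, but a smaller share of them than of narrow ones. Of 4754 Sin3A regions of 1000 bases or more, 67.7% shared no base with Foxk1. The share was 89.9% of the 10431 narrow regions and 83.0% over all Sin3A regions. Overlap with Foxk1 was level below 600 bases, at 5.42% under 400 bases, 5.40% at 400 to 499 and 5.50% at 500 to 599 bases. It was 11.4% at 600 to 799 bases and 23.4% at 800 to 999 bases. The wide classes had 30.0% at 1000 to 1249 bases, 29.6% at 1250 to 1499, 34.5% at 1500 to 1999 and 37.2% at 2000 to 2999 bases. In the widest class, of 3000 bases or more, 38.0% shared a Foxk1 base and 88 of 142 regions did not. A longer region has more bases at which to meet another list, and the part of length in these shares was not tested.

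Wide Foxk1-free regions lay nearer to Foxk1 regions than narrow Foxk1-free regions did, although both sets exclude any shared base. The nearest Foxk1 region was a median of 47.5 kb away from the edge of a wide region (exact 95% interval 44.8 to 50.4) and 71.4 kb away from a narrow one (68.9 to 74.4). The middle 50% ran from 17.8 to 116 kb for the wide and from 22.9 to 192 kb for the narrow regions, so the sets overlapped broadly. The wide regions had the lower median on 18 of 19 chromosomes. The exception was chromosome 18, with 80.0 kb for the wide and 69.9 kb for the narrow regions.

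The difference lay at long range. Within 1 kb of a Foxk1 region were 106 wide regions, or 3.29% (2.70 to 3.97), and 3.37% of narrow regions (3.01 to 3.75). Within 10 kb the shares were 16.2% (14.98 to 17.6) and 14.5% (13.7 to 15.2). Within 50 kb they were 51.6% (49.8 to 53.3) and 41.3% (40.3 to 42.3). Within 100 kb they were 70.7% (69.1 to 72.3) and 58.8% (57.8 to 59.8). Only 25 wide regions, or 0.776%, had no Foxk1 region within 1 Mb, against 4.33% of narrow regions. Seen from the other list, 42.9% of the 7931 Foxk1 regions had a wide Foxk1-free region within 100 kb, and 1.31% had one within 1 kb.

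**Figure D2:**
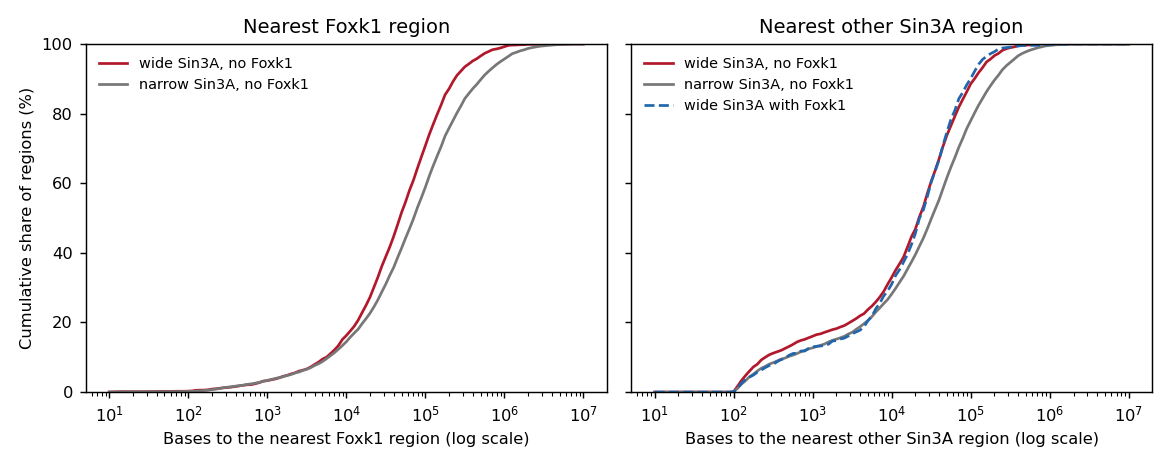
Cumulative share of regions (vertical axis, percent) by distance in bases (log scale) to the nearest Foxk1 region (left) and to the nearest other Sin3A region (right), for wide Foxk1-free (red), narrow Foxk1-free (grey) and wide Foxk1-sharing (blue, right panel only) Sin3A regions. On the left the curves run together to about 1 kb and part by 100 kb, at 70.7% and 58.8%; on the right the red and blue medians are 22.1 and 22.5 kb.

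Spacing within the Sin3A list was similar for the wide Foxk1-free regions and for the regions that share Foxk1. The nearest other Sin3A region was a median of 22.1 kb away from a wide Foxk1-free region (21.0 to 23.9). The medians were 22.5 kb (21.1 to 25.3) for wide and 22.3 kb (20.1 to 24.2) for narrow regions with Foxk1, and 31.9 kb (30.7 to 33.4) for narrow regions without it. Wide Foxk1-free regions had the lower median of the 2 Foxk1-free sets on 18 of 19 chromosomes, chromosome 7 being the exception (28.4 kb for wide and 24.8 kb for narrow regions). Neighbours were also counted by their centres, within 100 kb on each side of the centre of a region. Around wide Foxk1-free regions there were on average 2.97 other Sin3A regions and 1.61 Foxk1 regions. Around narrow Foxk1-free regions the averages were 2.32 and 1.23. No Foxk1 centre lay in that window for 29.7% of wide (28.1 to 31.3) and 41.3% of narrow Foxk1-free regions (40.3 to 42.3).

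Among the wide Foxk1-free regions themselves, distance to Foxk1 changed little with width until the widest class. The median distance to Foxk1 was 48.7 kb at 1000 to 1249 bases, 49.3 kb at 1250 to 1499, 47.1 kb at 1500 to 1999 and 47.2 kb at 2000 to 2999 bases, with intervals that all overlapped. The 88 regions of 3000 bases or more stood at 26.1 kb (14.9 to 44.1), an interval that met those of 3 of these 4 classes. Their nearest other Sin3A region was a median of 5.29 kb away (1.04 to 14.8), where the class of 1000 to 1249 bases had 24.3 kb (21.9 to 27.2). The classes between had 21.9 kb at 1250 to 1499, 22.7 kb at 1500 to 1999 and 17.8 kb (14.6 to 23.7) at 2000 to 2999 bases. Of these 88, 34 had another Sin3A region within 1 kb, or 38.6% (28.4 to 49.6), against 15.4% (13.4 to 17.7) at 1000 to 1249 bases.

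Below the threshold the order of the classes was not a simple gradient. The distance to Foxk1 was longest, 87.0 kb (79.9 to 95.1), for Foxk1-free regions of 500 to 599 bases, and it was 57.1 kb (51.8 to 65.3) for those under 400 bases. Regions of 800 to 999 bases, at 60.4 kb (53.6 to 64.5), lay between the commonest widths and the wide set. For spacing within the Sin3A list they already matched the first wide class in value, at 24.1 kb (21.1 to 26.8).

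**Figure D3:**
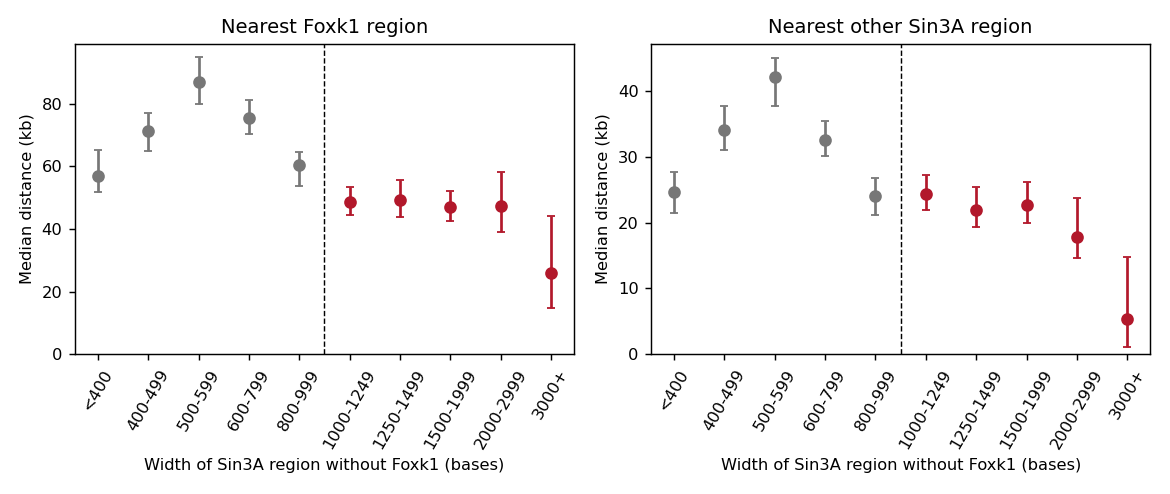
Median distance in kb from Sin3A regions without Foxk1 to the nearest Foxk1 region (left) and the nearest other Sin3A region (right) by width class in bases; bars are exact 95% intervals of the median, red marks 1000 bases or more. Both panels peak at 500 to 599 bases (87.0 and 42.1 kb) and are lowest at 3000 bases or more (26.1 and 5.29 kb).

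Some wide regions had a close Sin3A neighbour. Another Sin3A region lay within 1 kb of 517 wide Foxk1-free regions, or 16.1% (14.8 to 17.4), against 12.7% of narrow Foxk1-free ones (12.0 to 13.4), 13.0% of wide ones with Foxk1 (11.3 to 14.8) and 14.6% of narrow ones with Foxk1 (12.5 to 16.9). The interval of the narrow set with Foxk1 overlapped that of the wide Foxk1-free set, and among narrow Foxk1-free regions the share was as large in the classes under 400 bases (17.7%) and of 800 to 999 bases (16.5%). No gap in the analysed Sin3A list was shorter than 100 bases, and 523 of 15166 gaps measured 100 to 200 bases. The close neighbour was a narrow Foxk1-free region in 338 of the 517 cases, another wide Foxk1-free region in 108 and a region with Foxk1 in 71.

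Some Foxk1 regions shared bases with such a neighbour. When Sin3A regions at most 500 bases apart were joined, 67 wide Foxk1-free regions, or 2.08%, fell into 63 joined blocks that also held a Foxk1 base. Of the 106 wide regions with Foxk1 within 1 kb, 64 had a nearest Foxk1 region that shared bases with a different Sin3A region, or 60.4% (50.4 to 69.7). The same held for 53.5% (47.8 to 59.1) of the 316 narrow ones. Without regard to distance it held for 38.9% of wide and 34.4% of narrow Foxk1-free regions. Counted over the Foxk1 list instead, 33.1% of all Foxk1 regions shared bases with a Sin3A region.

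The 5 regions closest to Foxk1 nearly touched it. On chromosome 17, chr17:35973252-35975209 (1958 bases) ended 9 bases before a Foxk1 region of 486 bases. The gaps were 11 bases for chr19:56622019-56623607, 12 bases for chr10:45008914-45009956, 14 bases for chr18:73862092-73863156 and 31 bases for chr11:86397616-86400566, which is 2951 bases wide. None of these 5 Foxk1 regions shared a base with any Sin3A region. With gaps of 9 to 31 bases, a small shift of a boundary would move these 5 wide regions out of the set. At the other end, 4 of the 5 most distant regions lay on the X chromosome. The first, chrX:126284550-126285761, was 3853 kb from the nearest Foxk1 region, and chr4:19635453-19636661, the only 1 of the 5 on an autosome, was 1854 kb away.

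The widest region was chr6:52172759-52180333, at 7575 bases, 61.5 kb from the nearest Foxk1 region and 138 bases from another wide Foxk1-free region. The second was chr18:75526967-75533644, with 6678 bases, 3.78 kb from Foxk1. The third, chr16:92693196-92699289, measured 6094 bases, with 38.6 kb to the nearest Foxk1 region and 50.01 kb to the next Sin3A region. The next on the list, chr5:143573638-143579261, measured 5624 bases and ended 113 bases before a Foxk1 region of 615 bases that shares some of its bases with another Sin3A region, 421 bases away. Next came chr4:88581009-88586252 with 5244 bases, chr6:42299307-42304537 with 5231 bases and chr10:79611345-79616110 with 4766 bases, which had Foxk1 at 0.377, 7.23 and 5.43 kb. The last 3 of the 10 widest were chr12:77469053-77473809 (4757 bases), chr12:86939381-86943875 (4495 bases) and chr5:143721502-143725908 (4407 bases). Of the 10, the first of the chromosome 12 regions was the most remote, 464 kb from Foxk1 and 112 kb from any other Sin3A region. Thus the widest regions included that remote one and ones with close neighbours.

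Runs of wide Foxk1-free regions, in which neighbours were at most 10 kb apart, held 284 of the 3220 regions (8.82%) in 132 runs. Of these, 121 were pairs, 6 had 3 regions and 5 had 4 or more. The longest stood out by its number: chr6:52161644-52199694, 38.1 kb long, held 8 wide regions and 1 narrow region of 394 bases and no Foxk1 region. Its wide regions measured, from left to right, 1859, 1697, 3142, 7575, 4327, 3630, 3506 and 2103 bases and covered 73.2% of the run. Every one of them lay between 50.4 and 86.4 kb from the nearest Foxk1 region.

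The other 4 of these 5 runs each held 4 wide regions, and the first 2 by position are described here. The run chr3:128902035-128921970 had regions of 3118, 2761, 4066 and 1197 bases, in pairs parted by 8100 bases, with no other Sin3A and no Foxk1 region inside and Foxk1 17.4 kb away or more. The run chr4:88576649-88588602 had regions of 1058, 1367, 5244 and 1250 bases. It held 2 narrow Sin3A regions, of 438 and 558 bases, and 1 Foxk1 region, chr4:88586630-88587074. That Foxk1 region lay under the narrow Sin3A region of 558 bases and was 377 bases from the widest region of the run. Wide regions covered 55.9% of the chromosome 3 run and 74.6% of the chromosome 4 run. In the tied runs on chromosomes 11 and 17 they covered 80.5% and 33.4%, with no Foxk1 region inside either.

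**Figure D4:**
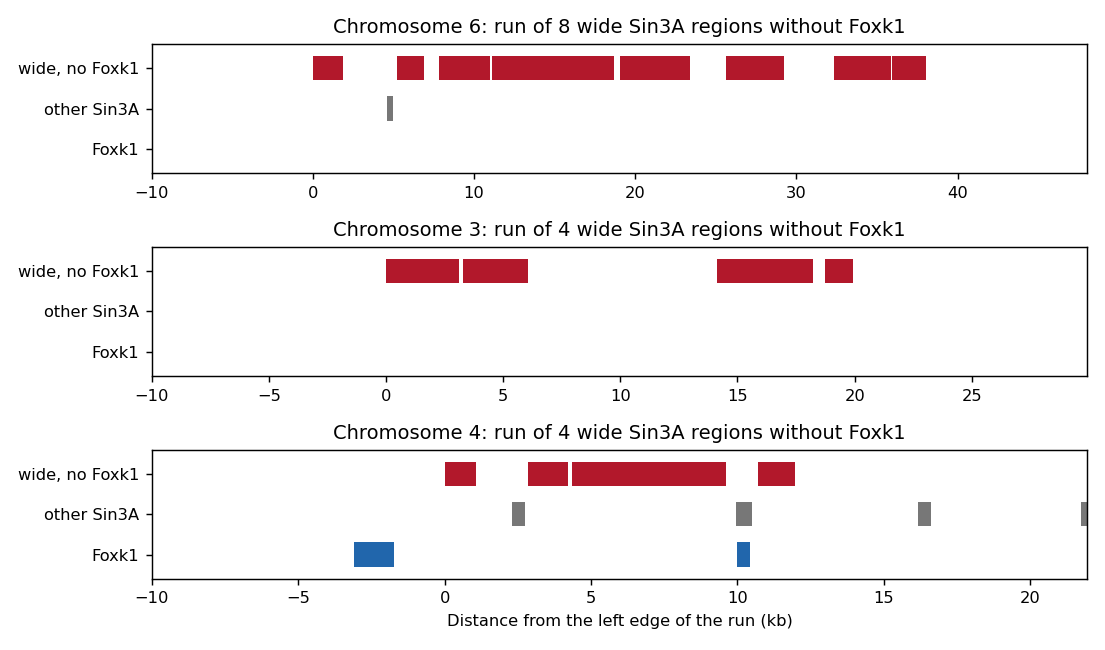
Maps of 3 runs of wide Foxk1-free Sin3A regions, with distance in kb from the left edge of each run and 10 kb shown on either side; red bars are wide Foxk1-free, grey bars other Sin3A and blue bars Foxk1 regions. The chromosome 6 run (top) has 8 red bars and no blue bar in the 38.1 kb; the chromosome 4 run (bottom) has a blue bar between its red bars.

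In windows of 1 Mb, wide Foxk1-free regions occurred in 1298 of the 2214 windows that held any Sin3A region, singly in 517 of them. Only 9 windows held 10 or more, together 116 regions. These windows were examined after their counts were seen. The window with the highest count, chr19:5000001-6000000, held 20 wide Foxk1-free regions among 47 Sin3A regions, next to 6 wide regions with Foxk1 and 21 Foxk1 regions. The window chr10:80000001-81000000 held 14 among 39, with 14 Foxk1 regions. The window chr5:135000001-136000000 differed in makeup, with 11 wide Foxk1-free regions among only 16 Sin3A regions, none of them wide with Foxk1. It held 6 Foxk1 regions.

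Wide Foxk1-free regions were found on all 19 chromosomes analysed, and the X chromosome held the smallest share. There 28 of 345 Sin3A regions, or 8.12% (5.46 to 11.5), were wide and Foxk1-free, where the 18 autosomes together had 3192 of 14840, or 21.5% (20.9 to 22.2). The lowest autosome was chromosome 10, with 17.6% (15.3 to 20.1). The X chromosome had 0.175 such regions per Mb of the span covered by its Sin3A list, where chromosome 14 had 0.928, chromosome 11 had 2.32 and chromosome 19 had 2.35. All Sin3A regions together differed in density too, with 2.16 per Mb on X, 4.49 on chromosome 14, 11.7 on chromosome 11 and 9.83 on chromosome 19. The densities of wide Foxk1-free regions therefore also carry the density of the whole list. Its wide Foxk1-free regions were also the narrowest by median, at 1213 bases, and none exceeded 2180 bases. The median distance to Foxk1 was 264 kb there, and only 95 Foxk1 regions lay on the chromosome. Wide regions in general were few there: 38 of its 345 Sin3A regions were wide, where 4754 of 15185 were wide over all chromosomes. Of those 38, 28 were without Foxk1, or 73.7% (56.9 to 86.6), a broad interval that holds the 67.7% of all wide regions. The wide Foxk1-free share of X was the lowest of the 19 chromosomes also at 750 bases or more (23.2%, all chromosomes 32.8%). The same held at 1500 bases or more (1.45%, all chromosomes 8.44%).

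Among autosomes, chromosomes 7 and 9 had the highest shares, 27.2% (23.9 to 30.6) and 26.2% (23.1 to 29.5). On chromosome 7 this depended on the threshold. With a width of at least 750 bases it was again first, at 43.4%, but at 1500 bases it had 7.23%, below the 8.44% of all chromosomes. Chromosome 9 was second at both of these widths. Chromosome 11 had the most Sin3A regions of those analysed, 1391, and the lowest share of wide regions without Foxk1, 57.3% (52.7 to 61.8), with 205 of its 480 wide regions sharing Foxk1.

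**Figure D5:**
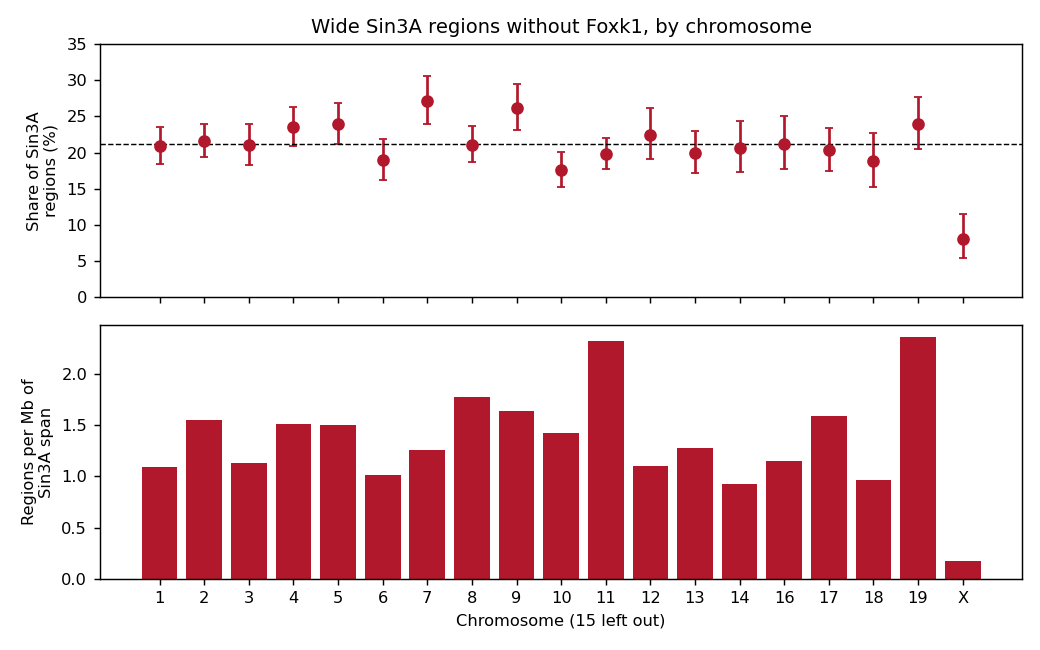
Top, share of the Sin3A regions of each chromosome that are wide and Foxk1-free (percent, points with exact 95% intervals; dashed line, all chromosomes, 21.2%). Bottom, number of such regions per Mb between the first and last Sin3A region of the chromosome. X is lowest in both panels, at 8.12% and 0.175 per Mb. It is also lowest for all Sin3A regions, at 2.16 per Mb (not drawn).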

How the data were processed

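Sin3A and Foxk1 regions came from 1 ChIP-seq list each. Per the submitters' processing notes, the build was mm9 and the tools were bedtools, SAMtools 0.1.19 and BWA 0.7.5a. No source used here names the peak caller or its thresholds. The lists are named as merged, and what was merged, and at what distance, is not stated. The deposited lists hold left and right boundaries with no score. The Sin3A file has no header, and its columns were read as those named in the header of the Foxk1 file. Of 16779 Sin3A rows, 6 repeats were removed, then 1577 regions on chromosome 15 and 11 on M were left out. Left boundaries were read as counted from 0, and printed starts have 1 added. Regions were shared from 1 common base. Distances are edge to edge, and the counts of neighbours within 100 kb on each side are centre to centre. Intervals are exact (Clopper-Pearson for shares, order statistics for medians), at 95%.

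The deposited FPKM values, with the authors' 95% limits, were used as given. Their tools were Cuffdiff, Cufflinks 2.1.1, Bowtie2 2.1.0 and TopHat2 2.0.9, per the submitters' processing notes. A gene is called apart where the authors' intervals do not overlap; rows entered where either library reached 1 FPKM, and 1 row with reversed limits was left out. FPKM keeps no depth.

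The regions and gene lists were chosen with earlier results of these data known. Regions were named by rule: the 10 widest, the 5 farthest from and 5 nearest to Foxk1, the 3 runs with most regions, and 3 on either side of the threshold. The myoblast, differentiated muscle, fibroblast, adipocyte, endothelial and macrophage markers served as a check of the cells. Planned work on sequence, start sites and genes at the regions was not run, because no mm9 genome or annotation was used here. Interval code was tested on simulated data. Python 3.11.15, numpy 2.4.6, pandas 2.3.3, scipy 1.17.1 and matplotlib 3.10.9 were used.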

Additional observations from a re-analysis of the deposited data

How the results depend on the processing

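The lower medians of wide than of narrow Foxk1-free regions, for distance to Foxk1 and to other Sin3A regions, kept their direction in all 16 alternative values. The number of wide Foxk1-free regions was 4976 with a width of at least 750 bases and 1281 at 1500 bases. Their share of Sin3A regions was then 32.8% and 8.44%, and it was 20.4% with chromosome 15 kept, 20.5% without regions that have Foxk1 within 1000 bases, 27.4% when only an overlap of 50% or more of the Sin3A region counted as shared, and 23.2% with regions at most 500 bases apart joined. The median distance to Foxk1 was 51.7 kb at 750 bases and 44.5 kb with chromosome 15 kept. The share within 10 kb of Foxk1 was 18.3% at 1500 bases, 14.9% centre to centre, 14.5% with joined regions and 13.3% without regions that have another Sin3A region within 1000 bases; it was 9.47% within 5 kb and 51.6% within 50 kb. The median distance to another Sin3A region was 20.3 kb at 1500 bases, 27.7 kb with joined regions and 29.4 kb without regions with a close neighbour. The share within 10 kb of another Sin3A region was 30.7% centre to centre, 23.8% with joined regions and 20.1% without regions with a close neighbour, and it was 23.7% within 5 kb and 73.8% within 50 kb. The share on chromosome 7 was 43.4% at 750 bases and 7.23% at 1500 bases, and on the X chromosome 23.2% and 1.45%. Runs with gaps up to 50 kb held 1034 regions. Apart from the changes that a threshold or window makes by construction, the cause was not tested. Joining, leaving out the X chromosome or close neighbours, and narrow regions of at least 500 bases were alternatives chosen after seeing the data. Alternatives on start sites, sequence and gene expression at the regions were not run. No paired analysis was possible because each group has 1 sample. With no scores, reads or replicate lists, regions cannot be ranked by strength.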

Other observations

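The other marker lists gave these sums of FPKM in the non-starved siNS, starved siNS and Foxk1 knockdown libraries. The 7 myoblast markers found as single rows summed to 693, 601 and 732 FPKM, most of it Des (485, 403 and 520 FPKM), and all of them stood at 1 FPKM or more in each library. In the starved library Myod1 was lower apart, at 10.7 FPKM against 70.1 FPKM, Msc was lower apart and Myf5 higher apart. In the knockdown library Msc was lower apart. Differentiated muscle markers summed to 25.7, 14.7 and 105 FPKM, with 4 of 5 higher apart in the knockdown library, where 8.89% of all expressed rows were higher apart. Fibroblast markers summed to 43.2, 39.5 and 77.9 FPKM, adipocyte markers to 11.3, 11.4 and 13.0 FPKM, nearly all of it Pparg, and endothelial markers to at most 0.198 FPKM. The 2 macrophage markers found summed to 2.51, 4.13 and 1.27 FPKM, almost all from Cd68. Plin1 was listed at 0 in all 3 libraries.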
